A study of Mus musculus with 28 samples.

Results

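Single cultured hippocampal neurons of the mouse, captured by TIVA, were set against whole hippocampal tissue. The comparison was chosen by the source name in the labels and takes in 4 neuron libraries and 3 bulk libraries, 7 of the 28 libraries of the series. All 28661 counted features were used. TIVA (transcriptome in vivo analysis) loads cells with a caged tag, a laser opens the tag in a chosen cell, and the opened tag binds polyadenylated RNA of that cell so that it can be pulled out. The neurons came from C57BL/6 mice and had grown on coverslips for 7 to 9 days; 10 µM tag was then applied for 15 min and cells were photolysed at 30% laser power. The bulk libraries came from coronal slices of C57BL/6 mice 8 to 10 days old, were labelled as untreated and held no selected cell. RNA of both kinds of sample was amplified linearly in 3 rounds of in vitro transcription, and polyadenylated RNA was sequenced in paired ends. The neuron protocol in the labels has the imaged field around the photolysed cell drawn up together with it before capture. Age, culture, tag, capture and the amount of starting RNA differ together between the groups and cannot be told apart.

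The hippocampus is built of excitatory pyramidal and granule neurons, inhibitory interneurons, astrocytes, oligodendrocyte lineage cells, microglia and vessels with their blood. A bulk library mixes the RNA of all of them, whereas a neuron in a dish has left the circuit, the vessels and most of its neighbours. In such a mixture fewer cells of a type and less RNA per cell cannot be told apart. The labelled cell type could not be checked against marker genes. Features carry UCSC known-gene identifiers, the files give no symbols for these, and none of them (0 of 55419) was found in the gene tables at hand, which are of a later genome build than the mm9 of the files. Features are therefore described by identifier, level and number of joined isoforms, 4 of them by name, and no sequence or position is given.

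Each neuron library stands for 1 cell, and since no label ties a library to an animal or a dish, each group counts as 1 sample. No test was run, and the spread between libraries may be technical. Differences are given beside every library's value, and n counts libraries. Neuron libraries 1 to 4 held 20.3, 26.2, 21.0 and 9.13 M (mega) reads assigned to features, and bulk libraries 1 to 3 held 26.7, 59.0 and 31.7 M. A count of 0 is compatible with up to 3 reads, which at these depths came to 0.114 to 0.329 counts-per-million (CPM, reads per 1 M assigned reads) in neurons and 0.0508 to 0.112 CPM in bulk. Reads outside any feature made up 19.9% to 38.4% of the assigned reads and summary lines together in neurons and 21.1% to 30.5% in bulk, and reads that fitted several features 5.79% to 10.9% and 4.68% to 8.88%. Values without single libraries are given where they change a result.

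A large part of the contrast between cultured neurons and tissue lay in a block of 8 features with consecutive identifiers, among them uc009vex.1. In neurons 1 to 4 this block took 36.5%, 60.4%, 56.4% and 14.8% of assigned reads. Bulk libraries 1 to 3 gave it 23.3%, 7.48% and 4.85%. Most neurons thus lay far above the tissue, but the groups overlapped, because neuron 4 was below bulk 1. The median was 46.5% in neurons and 7.48% in bulk. The 95% Wilson intervals of these shares were at most 0.0460 percentage points wide, and they cover counting error alone.

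The 8 features of the block differed in how far neurons lay above bulk. All 8 had a higher mean level in neurons, with log2 differences from 1.35 to 2.85 and a median of 1.92, where the log2 difference is that of mean log2(CPM + 10), neurons minus bulk. Each kept this direction under the 4 scalings tried. The scalings other than library total raised neuron levels relative to bulk, so a higher feature could hardly lose its direction under them. In 2 of the 8 every neuron lay above every bulk library. The feature uc009vex.1 had the largest difference of the 8 and was the most abundant of them in neuron 2 alone. It made up 22.8%, 33.0%, 28.6% and 24.1% of the block's reads in neurons 1 to 4, and 8.72%, 17.7% and 19.8% in bulk 1 to 3. This ratio within a library does not depend on scaling, and here the lowest neuron lay above the highest bulk library. The feature was picked for its large difference in these same libraries, so the ratio is no separate support for that difference. Of the 10 features with the highest mean level, 6 belonged to the block in neurons and 6 in bulk.

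Outside the block, the reads of a cultured neuron were spread over features much as those of tissue were. Counted over all reads, the 50 most abundant features took 43.8%, 66.6%, 63.2% and 25.2% in neurons and 36.6%, 20.8% and 16.2% in bulk, a difference of medians of 32.8 percentage points. It took 153, 4, 4 and 459 features to hold 50% of the reads of neurons 1 to 4, and 223, 616 and 768 for bulk 1 to 3. With the block left out, the 50 most abundant of the remaining features took 12.5% to 16.9% in neurons and 12.8% to 18.7% in bulk, and the difference of medians was -0.22 points. The number needed for 50% of those reads was 724 to 958 in neurons and 592 to 868 in bulk, and these ranges overlapped.

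**Figure D1:**
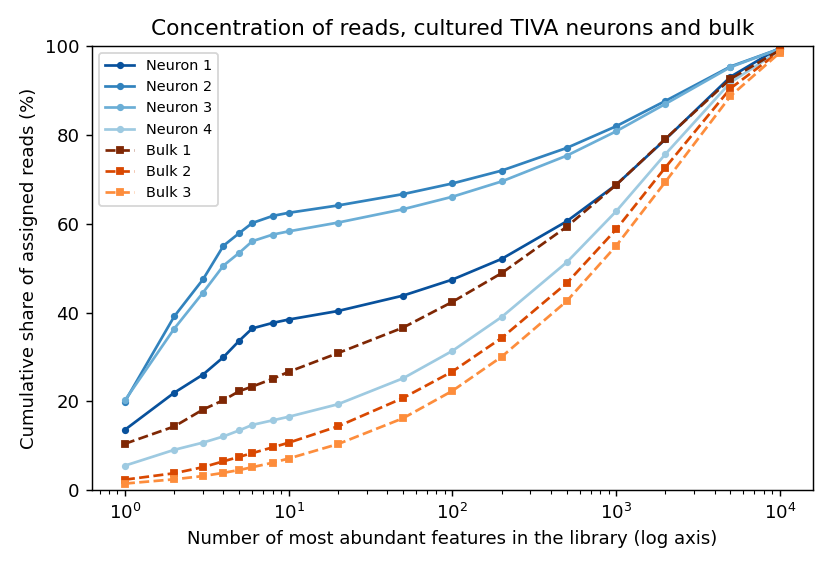
Cumulative share of assigned reads (%, vertical axis) held by the most abundant features of each library (number of features, log axis), for 4 cultured hippocampal TIVA neurons (solid lines) and 3 bulk hippocampus libraries (dashed lines). Neurons 2 and 3 pass 50% with 4 features, neuron 1 runs close to bulk 1 beyond 500 features, and neuron 4 lies between bulk 1 and the other bulk libraries.

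Single cultured neurons held 13271 to 17190 features at a common depth and the tissue 16964 to 17720. All libraries were thinned to 9.13 M reads, the depth of neuron 4, and a feature with 1 or more reads counted as detected. Neurons 1 to 4 then held 13271, 15871, 16359 and 17190 features, and bulk 1 to 3 held 17211, 17720 and 16964. Neuron 4 lay inside the bulk range. Neuron 1 was the lowest of all 7. The difference of medians was -1096 features, less than the spread over neurons (SD 1691, n = 4). It was -852 without neuron 1.

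Among reads outside the block, at a lower common depth, the difference in features detected was smaller. The cause of this change was not tested. When the reads outside the block were thinned to 7.78 M in every library, neurons held 13495, 16713, 17111 and 17182 features and bulk libraries 17407, 17587 and 16909, a difference of medians of -495. Neurons 3 and 4 were then inside the bulk range. Counting features at 50 CPM or more gave 3150, 1703, 1852 and 3498 in neurons against 3047, 3776 and 4114 in bulk. Neurons 2 and 3, the libraries with the greatest block share, had the lowest numbers at this limit. Since CPM values of a library share 1 total, a high block share and low CPM elsewhere go together.

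Neuron 1 stood apart in how its detection grew with depth. From 0.1 M reads it showed 8644 features, more than neurons 2 and 3 with 7887 and 7937. From 3 M reads it showed 12562, fewer than the 14597 and 15019 of neurons 2 and 3. At 9.13 M it reached 13271, and it gained fewer features over that step than any other of the 7 libraries. Over all 7 libraries, 12664 features had a read in every library, 16912 had a read in every bulk library and 12756 in every neuron.

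Almost no abundant transcript of the tissue was missing from a cultured neuron. In all 3 bulk libraries 2570 features reached 50 CPM. Of these, 4, 3, 2 and 2 were below 1 CPM in neurons 1 to 4, or 0.156%, 0.117%, 0.0778% and 0.0778%. In 2509 of the 2570 the lowest neuron was at 10 CPM or more, and in 1271 at 50 CPM or more. A total of 2566 features were at 1 CPM or more in every neuron, and 2 were below 1 CPM in all 4. Those 2 are uc009iuq.2 and uc009iup.1, described further on. The median share missing was 0.0973%, and 0.199% without bulk 2 and 0.189% without bulk 1. At a lower limit, and with uc009iup.1 among them, 23 features that reached 1 CPM in every bulk library had no read in any neuron, and 4 of those were at 10 CPM or more.

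Features of neurons that were missing from bulk were few as well. Not 1 feature at 1 CPM or more in all 4 neurons was without reads in all bulk libraries. Of the features that reached 50 CPM in a given neuron, none in neurons 1 to 3 and 1 in neuron 4 (0.0286% of its features at that level) lay below 1 CPM in every bulk library. This limit asks for absence from all 3 bulk libraries and the one before it for absence from 1 neuron, so the shares are not ranked against each other. All 4 neurons had 1346 features in common that reached 50 CPM, and 1271 of these did so in all bulk libraries too, which is 94.4% of the neuron set and 49.5% of the bulk set. When reads of the block were left out of the total, the sets held 2684 and 2997 features and shared 2274. The 100 features with the highest mean level in bulk tissue were among the 500 highest of each neuron in 97, 99, 98 and 99 cases.

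**Figure D2:**
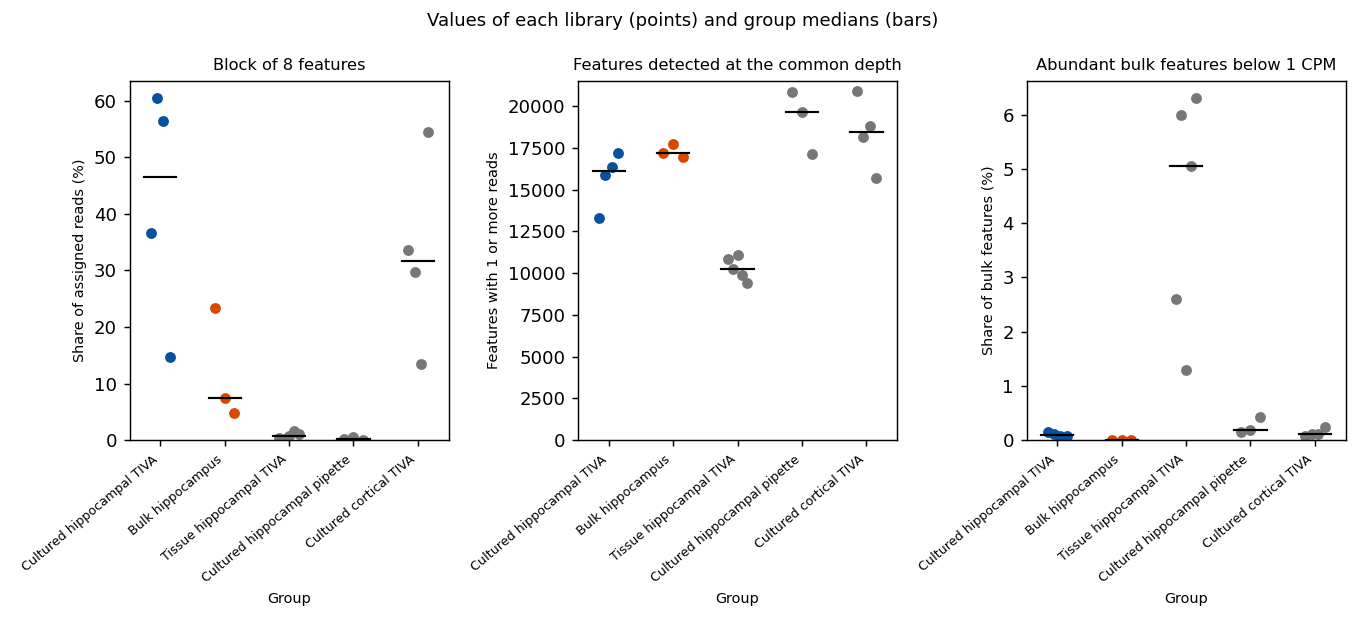
Per library (points) and as group medians (horizontal lines): the share of assigned reads in the block of 8 features (%), the number of features with 1 or more reads after thinning to 9.13 M reads, and the share (%) of the 2570 abundant bulk features that lie below 1 CPM. The 4 cultured hippocampal TIVA neurons (blue) lie at 14.8% to 60.4%, 13271 to 17190 and 0.0778% to 0.156%, and the bulk libraries (orange) at 4.85% to 23.3%, 16964 to 17720 and 0%, the last by definition; grey points are the tissue TIVA, cultured pipette and cultured cortical TIVA neurons set beside the same bulk.

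Levels of single features were compared over the 10397 features whose group means averaged 5 CPM or more. The difference was that of mean log2(CPM + 10), a scale that understates the change of low features. A feature was counted as different when this difference was 2 or more, that is 4-fold, and every library of one group lay above every library of the other. By this rule 6 features (0.0577% of those measured) were higher in cultured neurons and 58 (0.558%) were lower. Without neuron 4 the lower features numbered 144, and without bulk 1 there were 10 higher and 98 lower. At 4-fold alone 7 (0.0673%) were higher and 66 (0.635%) lower. Counting separation of the ranges alone, 98 (0.943%) were higher and 1838 (17.7%) lower. The middle 90% of features had differences from -1.31 to 0.39.

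The excess of lower features depended on the scaling. The median difference over all measured features was -0.42 when CPM was taken over all assigned reads. It was -0.05 with the TMM scaling of edgeR, 0.00 with the size factors of DESeq2 and 0.00 when the 50 most abundant features were left out of the library total. TMM and DESeq2 factors take most features as unchanged, so medians near 0 and more even counts follow largely from them. Higher features made up 9.38% of those counted as different by library total, with 6 higher and 58 lower. With TMM they made up 32.4%, with 11 higher (0.107%) and 23 lower (0.224%). With DESeq2 size factors they made up 42.1%, with 16 higher (0.156%) and 22 lower (0.214%). Leaving out the 50 most abundant features gave 42.1% as well, with 24 higher (0.208%) and 33 lower (0.287%). The 6 higher features and 22 of the 58 lower ones were counted under all 4 scalings. The scalings other than library total raised neurons relative to bulk, which favours this outcome for the higher features. Separation of ranges alone moved further, from 98 higher and 1838 lower by library total to 604 (5.88%) and 740 (7.2%) with DESeq2 size factors.

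**Figure D3:**
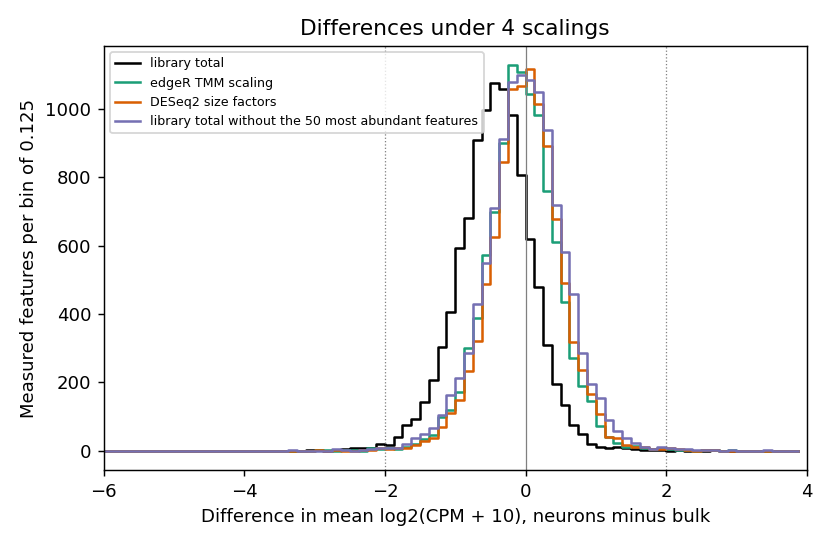
Number of measured features (vertical axis, per bin) by difference in mean log2(CPM + 10), cultured neurons minus bulk (horizontal axis), under 4 scalings, with dotted lines at the 4-fold limits. The distribution by library total is centred at -0.42 and the other 3 are centred between -0.05 and 0.00, with nearly all features inside the limits.

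The shift by library total was present in each band of abundance. Features averaging 5 to 20 CPM had a median difference of -0.28, those of 20 to 50 CPM -0.46, those of 50 to 200 CPM -0.60, those of 200 to 1000 CPM -0.77, and those of 1000 CPM or more -0.72. Adding 10 CPM before the logarithm shrinks differences of low features, so the order of these medians is not read as an order of change. Among the 61 features averaging 1000 CPM or more, the range was widest, with the middle 90% from -2.20 to 1.96, and 2 were counted as higher and 6 as lower. Both of the 2 belong to the block.

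On the log2(CPM + 10) scale, the feature ranked first among those higher in neurons was uc009vex.1, of the block. It stood at 83324, 199719, 161360 and 35562 CPM in neurons 1 to 4. In bulk libraries 1 to 3 it stood at 20342, 13222 and 9588 CPM. Every neuron lay above every bulk library, though neuron 4 was less than 2-fold above bulk 1. The means were 119991 CPM (SD 74254, n = 4) and 14384 CPM (SD 5470, n = 3), a ratio of 8.34 and a log2 difference of 2.85. This was the most abundant feature of neuron 2 and the second most abundant of the other neurons. It ranked between the second and the fifth in the bulk libraries.

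A far less abundant feature, uc007hda.1:uc007hdb.1, which joins 2 isoform identifiers, was second on this scale but had the higher ratio of means, 14.95 against 8.34. Its levels were 113, 54.5, 67.5 and 128 CPM in neurons 1 to 4 and 0.187, 8.84 and 9.19 CPM in bulk 1 to 3. The lowest neuron lay well above the highest bulk library, and bulk 1, with 5 reads, was the lowest of all. The summed reads were 6310, or 82.3 CPM (exact Poisson interval 80.3 to 84.4), in neurons and 818, or 6.97 CPM, in bulk. This interval covers counting error alone and not the spread over neurons, which lay at 54.5 to 128 CPM. The log2 difference was 2.64, and 3.49 with the 50 most abundant features left out of the total. With a pseudocount of 1 CPM in place of 10 it was 4.14. Its levels in the 3 other groups of single neurons examined were lower: cultured cortical TIVA neurons had 8.68 to 33.7 CPM, cultured hippocampal pipette neurons 0.303 to 1.68 CPM, and tissue TIVA neurons no read.

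The features lowest in neurons relative to tissue were uc009iuq.2 and uc009iup.1, neighbours in the numbering. The first stood at 1051, 197 and 235 CPM in bulk 1 to 3. In neurons 1 to 4 it had 0, 23, 10 and 0 reads, or 0, 0.877, 0.477 and 0 CPM. Bulk 1 was far above the other bulk libraries, and each bulk library was far above each neuron. The log2 difference was -5.19, and the means of 494 CPM (SD 483, n = 3) and 0.338 CPM (SD 0.424, n = 4) differed 1461-fold. The ratio was 638 without bulk 1 and 3110 without neuron 2, which held most of the neuron reads. Summed over neurons its 33 reads came to 0.431 CPM (exact Poisson interval 0.296 to 0.605). Here too the interval covers counting error alone and not the spread over neurons.

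The second, uc009iup.1, stood at 437, 56.6 and 72.9 CPM in bulk 1 to 3 and had no read in any neuron. A count of 0 allows up to 0.114 to 0.329 CPM per neuron library. With each neuron set at that limit, its bulk mean of 189 CPM (SD 215, n = 3) was at least 1030.06-fold higher, and at least 353-fold higher without bulk 1. Its bulk libraries followed the same order as for uc009iuq.2, with bulk 1 highest and bulk 2 lowest. How the authors' counting divided reads between similar or overlapping features is not given here, so the 2 are not counted as independent. Without bulk 1 the log2 differences were -4.45 for uc009iuq.2 and -2.89 for uc009iup.1.

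Levels of these 2 features were also read in 3 other groups of single neurons. Levels of uc009iuq.2 were 0 to 0.0647 CPM in cultured cortical TIVA neurons, 0.101 to 3.65 CPM in cultured hippocampal pipette neurons and 0 to 169 CPM in hippocampal tissue TIVA neurons. For uc009iup.1 no read was found in both cultured groups, and tissue TIVA neurons ranged from 0 to 52.2 CPM. The tissue TIVA means were 33.9 CPM for uc009iuq.2 and 10.4 CPM for uc009iup.1 over 5 libraries. For each feature the highest tissue TIVA library accounts for nearly all of that mean. These groups are set beside the same bulk libraries, so their contrasts with bulk share that reference.

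**Figure D4:**
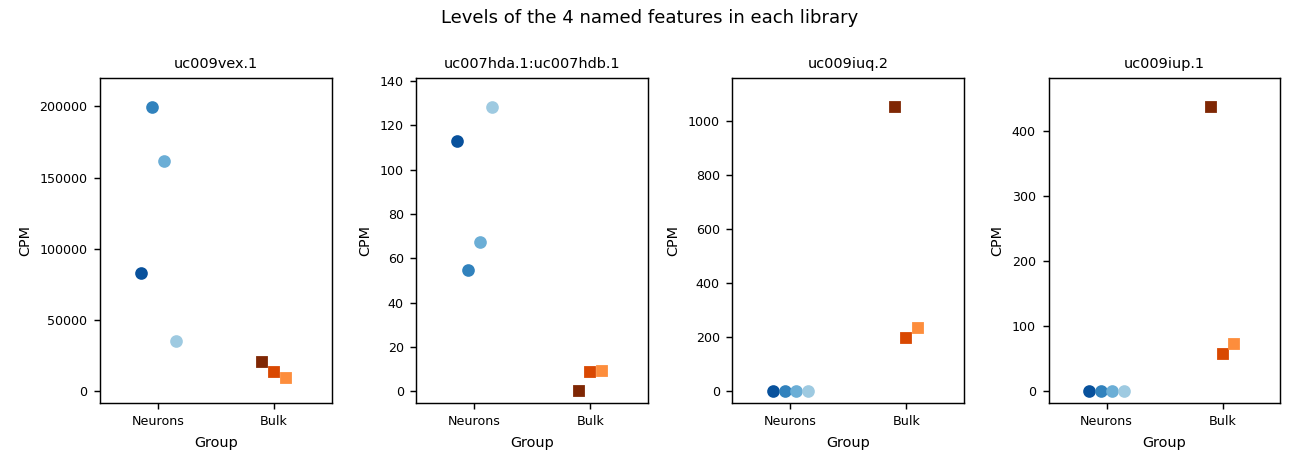
Level (CPM, linear axis, a separate scale for each panel) of the 4 named features in each of the 4 cultured hippocampal TIVA neurons (blue circles) and 3 bulk libraries (orange squares). The first 2 features lie above bulk in every neuron, and the last 2 lie near 0 in every neuron, with bulk 1 highest at 1051 and 437 CPM.

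Large differences from bulk were mostly those of 1 neuron. Set singly against the bulk mean, neurons 1 to 4 had 106, 16, 12 and 32 features that were 4-fold higher (1.02%, 0.154%, 0.115% and 0.308%). They had 252, 315, 161 and 40 that were 4-fold lower (2.42%, 3.03%, 1.55% and 0.385%). Of 142 features 4-fold higher in any neuron, 124 were so in 1 neuron and 1 in all 4. Of 520 features 4-fold lower in any neuron, 355 were so in 1 neuron and 21 in all 4. Neuron 4 had the fewest lower features and a median difference of -0.09, and neurons 2 and 3, with the largest block share, had median differences of -0.70 and -0.64.

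Few features were abundant in 1 neuron and low in the others. Of the 3150 features of neuron 1 at 50 CPM or more, 26 were below 10 CPM in the other neurons. Their highest level was 92.6 CPM, and 12 of them were also below 10 CPM in every bulk library. Neuron 4 had 8 of 3498, of which 0 were below 10 CPM in every bulk library. Neurons 2 and 3 had 0 of 1703 and 0 of 1852. Their block shares were the greatest, which goes with low CPM elsewhere. No feature that reached 50 CPM in 1 neuron was below 1 CPM in all the other neurons.

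Cultured neurons resembled the tissue about as much as they resembled each other. Pearson's r of log2(CPM + 10) across the 10397 measured features was 0.776 to 0.961 between neurons, with a median of 0.825 over 6 pairs. It was 0.872 to 0.946 between bulk libraries, with a median of 0.885 over 3 pairs. Between a neuron and a bulk library it was 0.717 to 0.911, with a median of 0.842 over 12 pairs. Features are not independent replicates, and these values are descriptions. The mean of both within-group medians exceeded the median between groups by 0.0131, and by 0.00195 without neuron 2 and 0.0425 without bulk 1.

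The neurons fell into no single arrangement around the tissue. Neurons 2 and 3 were the most alike of all pairs, at 0.961. They were kept as separate libraries, since their counts differed by more than counting error (chi-square of 37.6 per degree of freedom, the lowest of all pairs). This value cannot tell whether they came from different cells. Neuron 4 correlated at 0.900 and 0.911 with bulk 2 and bulk 3, more closely than with any other neuron, the highest of which was neuron 3 at 0.876. Neuron 1 correlated with bulk libraries at 0.717 to 0.773 and with other neurons at 0.776 to 0.811. Bulk 1 correlated at 0.885 with bulk 3, at 0.876 with neuron 3 and at 0.872 with bulk 2.

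**Figure D5:**
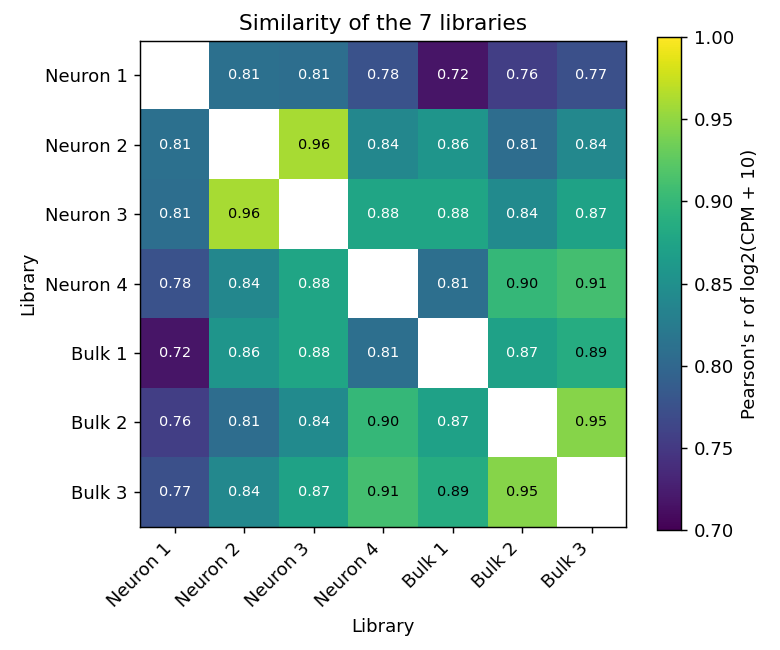
Pearson's r of log2(CPM + 10) across 10397 features for each pair of the 7 libraries (colour and printed value, rows and columns are libraries). Neurons 2 and 3 reach 0.96, neuron 4 reaches 0.90 and 0.91 with bulk 2 and bulk 3, and neuron 1 with bulk 1 is lowest at 0.72.

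Levels varied more over the 4 neurons than over the 3 bulk libraries. The SD of log2(CPM + 10) had a median of 0.52 over neurons and 0.35 over bulk libraries, and it was the larger over neurons for 69.6% of features. An SD over 3 libraries tends to come out smaller than one over 4, and this was not corrected for. An SD of 1 or more was reached by 703 features (6.76%) over neurons and by 293 (2.82%) over bulk libraries. In features of 50 to 200 CPM the medians were 0.68 and 0.45, and in those of 1000 CPM or more 0.73 and 0.54. Neuron 4 had the highest value of the 4 for 52.0% of features, and neuron 2 the lowest for 39.5%. In bulk, library 1 had the lowest value for 61.8%. The difference between the median SDs of 0.17 became 0.04 without neuron 4, 0.06 without neuron 1 and 0.31 without bulk 1.

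By library total, the median difference was alike for features that join few or many isoform identifiers. Features with 1 identifier had a median log2 difference of -0.43 (3253 measured), those with 2 to 4 -0.42 (5664), those with 5 to 9 -0.40 (1376) and those with 10 or more -0.46 (104), beside -0.42 over all. Of the 6 features counted as higher, 4 had 1 identifier. Of the 58 lower, 30 had 1 identifier (0.922% of the measured features of that class), 21 had 2 to 4 (0.371%), 7 had 5 to 9 (0.509%) and 0 had 10 or more, beside 0.558% over all. These shares rest on few features, the last class has 104 measured features, and other scalings were not tried for them. Differences between the shares were not tested. Features with 1 identifier took 44.7% to 75.8% of reads in neurons and 37.6% to 52.8% in bulk. These became 29.9% to 39.8% and 34.4% to 38.4% with the block, whose features have 1 identifier each, left out.

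Set beside the same bulk libraries, cultured cortical TIVA neurons had values that overlapped those of the cultured hippocampal ones. Their block share was 13.4% to 54.5%, and a median of 0.117% of the abundant bulk features were missing. By the same rule 7 features (0.0657%) were higher and 59 (0.553%) lower. At 9.13 M reads the cortical neurons held 15717 to 20917 features, a range that took in that of bulk. Their difference of medians from bulk was 1242.5 features, opposite in sign to the -1096 of the cultured hippocampal TIVA neurons. Hippocampal neurons taken from tissue by TIVA came from mice 8 to 10 days old. They had 30 µM tag for 90 min and 80% laser power, against 10 µM, 15 min and 30% in both cultured TIVA groups. Source and these settings differ together and cannot be told apart. The tissue TIVA neurons had a block share of 0.280% to 1.56%, with 25 features (0.24%) higher and 219 (2.1%) lower. At 9.13 M reads they held 9407 to 11093 features, all below the lowest cultured hippocampal TIVA neuron. Cultured hippocampal neurons drawn up by pipette had a block share of 0.0736% to 0.478%, with 126 features (1.14%) higher and 173 (1.57%) lower, and held 17139 to 20861 features. The groups share the bulk libraries, and differences between these counts were not tested.

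The median correlation of a library with bulk was 0.756 to 0.900 in cultured hippocampal TIVA neurons and 0.766 to 0.900 in cultured cortical TIVA neurons. It was 0.746 to 0.776 in cultured hippocampal pipette neurons and 0.637 to 0.770 in hippocampal tissue TIVA neurons. All of these were taken over the same 10397 features. Those were chosen by their levels in cultured hippocampal TIVA neurons and bulk, not in the other groups, so the values are not ranked. The share of uc009vex.1 within the block was 17.1% to 24.2% in cultured cortical TIVA neurons. This range overlapped both the cultured hippocampal range of 22.8% to 33.0% and the bulk range of 8.72% to 19.8%. The share was 5.60% to 14.6% in pipette neurons and 8.13% to 10.8% in tissue TIVA neurons, below all cultured TIVA neurons. Reads outside any feature made up 31.5% to 75.3% in the pipette group and 43.4% to 67.5% in the cortical group, against 19.9% to 38.4% here, and their part in the counts of detected features was not tested.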

How the data were processed

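The authors deposited whole-number read counts per feature, 1 table per library. The submitters' processing notes name CASAVA 1.8.1, HTSeq and mm9. The aligner, overlap mode and strand setting: not given in the sources used here. The 5 HTSeq summary lines, shares of which are in the report, were left out of totals. CPM, thinning (once, fixed seed) and correlations were computed with Python 3.11.15, numpy 2.4.6 and pandas 2.3.3, and scaling factors with edgeR 4.0.16 (TMM) and DESeq2 1.42.0, used for scaling alone. Replicate numbers follow record order. The procedure was tested on simulated data.

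Named features averaged at least 20 CPM in the higher group, each library of which had at least 10 reads and lay above all libraries of the other. They were ranked by difference in mean log2(CPM + 10), and the first 2 per direction are named, since no symbols could be attached. The block, rules and comparison were chosen with earlier results of these data known. Marker lists could not be used without symbols.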

Additional observations from a re-analysis of the deposited data

Results flagged for a closer look

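In 18 quantities, the highest and lowest of the 4 cultured hippocampal TIVA neurons were examined for a gap to the nearest library that was large against the range of the group. Chance gives such a gap in about 1 of 20 groups, and 2 were found. The 18 quantities overlap, so the number found is not set against that rate. Neuron 1 held 13738 features with a read before thinning, far below the other neurons at 17068, 17307 and 17190, although its 20.3 M assigned reads were more than those of neuron 4. Neuron 4 was the only neuron with a feature at 50 CPM or more that was below 1 CPM in every bulk library. This was 1 feature or 0.0286% of its features at that level, the others being at 0%, so the gap rests on that 1 feature. With the others all at 0%, any higher value gives such a gap, and the rate of 1 of 20 does not apply to it.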

How the results depend on the processing

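No paired analysis was possible because replicate numbers follow record order and pair no libraries. The features higher and lower by 4-fold with ranges apart, 6 and 58, became 11 and 23 with TMM, 16 and 22 with DESeq2 size factors, and 24 and 33 without the 50 most abundant features. They became 20 and 30 without the block (chosen after seeing the data), 31 and 382 with a pseudocount of 1 CPM, 35 and 821 at a log2 difference of 1, 15 and 96 with summed counts and fold alone, and 13 and 130 against bulk replicate 3 alone. This is the bulk library whose title has the prefix of the neuron titles. A filter of 50 CPM left 3 higher. Leaving out 1 library gave 5 to 10 higher, most without bulk 1, and 48 to 144 lower, most without neuron 4 and 98 without bulk 1. The median log2 difference of -0.42 was -0.052 with TMM, 0.0038 with DESeq2, -0.0012 without the 50 most abundant features, 0.014 without the block and -0.051 with no filter. It was larger in size at -0.65 with a pseudocount of 1 CPM, -0.63 with a filter of 50 CPM and -0.59 against bulk replicate 3 alone, and -0.54 to -0.32 with 1 library left out. The 50-feature share difference of 32.8 points became -0.22 points outside the block (23.0 to 42.5 with 1 library left out).

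The share of abundant bulk features missing from a neuron, a median of 0.0973%, was 0.0458% with TMM, 0.0468% with DESeq2, 0.257% with an on limit of 20 CPM and 0.316% against bulk replicate 3 alone. With 1 library left out it was 0.0778% to 0.199%, highest without bulk 2. The reverse share, a median of 0%, was 0.0349%, 0.0534% and 0.0229% under the 3 other scalings, 0.0687% with an on limit of 20 CPM and 0.0159% against bulk replicate 3 alone, and 0% to 0.0159% with 1 library left out. The causes of these changes were not tested. The difference in features detected stayed between -1497.5 and -495, the correlation gap between 0.00195 and 0.0455 and the difference in SD between 0.039 and 0.32 over all settings run. The 4 named log2 differences kept their direction in every setting run, at 2.51 to 3.50 (uc009vex.1), 2.32 to 4.14 (uc007hda.1:uc007hdb.1), -8.15 to -4.45 (uc009iuq.2) and -6.94 to -2.89 (uc009iup.1). These features were named for having the ranges of the groups apart, so leaving out libraries could not reverse their direction. Depth limits what is seen below 0.329 CPM in the shallowest neuron.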
